A study of Mus musculus with 93 samples.

Results

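Imprinted genes are expressed mainly or only from the allele inherited from a single parent. The 42 genes described here are a list of imprinted mouse genes given by symbol, found among the 47729 gene identifiers of the counts by their Ensembl identifiers in an annotation of GRCm38 (GENCODE M21). They lie in 18 domains on 10 chromosomes, 15 of them on chromosome 7. By textbook knowledge, which need not hold in adult brain, 24 are classed as expressed from the paternal allele and 16 from the maternal allele. The allele depends on the promoter for *Gnas* and on the tissue for *Grb10*. 8 of the 42 make RNA that codes for no protein.

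The study asked how genetic background changes the brain of mice that carry mutations of Alzheimer's disease, and measured RNA of the left brain hemisphere by RNA-seq in 93 mice aged 8 months. 3 wild-derived strains, PWK/PhJ (PWK), WSB/EiJ (WSB) and CAST/EiJ (CAST), were set beside C57BL/6J (B6). Mice of each strain were wild type (WT) or hemizygous for a transgene driven by prion promoters (the group called *APP/PS1*), which had been backcrossed from B6 to the other strains for at least 6 generations. Females and males of each strain and genotype gave 6 mice each, apart from WT females of PWK (5 mice) and *APP/PS1* females of B6 (4 mice). Counts on genes summed to 53969802 in the shallowest library and 106016200 in the deepest, with a median of 66559575. CPM are counts relative to the library size after TMM scaling. B6.*APP/PS1* female 2 and B6 WT male 5 stood apart on the first principal component in an earlier analysis of these data.

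In the germline, imprinting control regions are methylated in eggs or in sperm, and the mark is kept through later cell divisions so that genes of the region are silent on a single parental chromosome. Many imprinted genes act on growth, placenta and behaviour, and in the brain several are highest in neurons of the hypothalamus or, like *Igf2*, in the choroid plexus and meninges. The mice are of inbred strains and the counts add up both alleles, so the values are levels of each gene and hold no measure of its parental origin.

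Per kilobase of exon, the long non-coding RNA *Meg3* had the highest mean level of the 42 genes, 265 CPM per kb over the 93 mice. It was followed by *Nap1l5*, of the nucleosome assembly protein family (219.8), *Snrpn*, which encodes the spliceosomal protein SmN (119), the non-coding RNA *Peg13* (84.9) and *Impact*, an inhibitor of the kinase Gcn2 (71.7). *Slc22a18*, *H19*, *Nespas* and *Phlda2* were the lowest on the same scale, at 0.201, 0.159, 0.0174 and 0.00929 CPM per kb. Genes were tested when 10% of the mice or more had counts of 10 or higher, and 40 of the 42 passed. *Phlda2*, which restrains growth of the placenta, had a count of 0 in 63 of 93 mice and at most 7, and without this filter it was called between CAST and WSB and in the F test of CAST, WSB and PWK, in WT mice. *Nespas*, an antisense RNA of the *Gnas* domain, had a count of 0 in 12 mice, a median of 3 and at most 13. Of those tested, *Mkrn3*, *Slc22a18* and *H19* had low counts, with medians of 46, 22 and 24 counts per mouse, while the 40 tested had a median mean level of 58.1 CPM against 5.45 CPM over all 23702 genes tested. Together the 42 genes took 0.947% of the counts.

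21 of the 42 genes share exon bases with another annotated gene, and 6 share at least 20% of them. These are *Nespas* (38.5%), *Snrpn* (34.1%, with *Snurf* and Gm38393), *Cdkn1c* (30.7%, with the antisense Gm44732), *Ube3a* (27.3%, with *Snhg14* and other antisense genes), *Mest* (23.1%, with *Copg2*) and *Gnas* (22%). The strand and overlap setting of the counting is not stated, so the levels of these genes are uncertain. *Kcnq1ot1*, *Nap1l5*, *Nnat*, *Zrsr1* and *Peg13* lie within the bounds of *Kcnq1*, *Herc3*, *Blcap*, *Commd1* and *Trappc9*, and *Ndn*, *Magel2* and *Mkrn3* within those of Gm32061. Of these, *Zrsr1* shares 412 exon bases with *Commd1* and *Kcnq1ot1* 121 with *Kcnq1*, and the other 6 share 0 with their hosts. The exon annotated for *Kcnq1ot1* covers 93.1 kb. The part of unspliced reads of the hosts in the counts of these genes was not tested.

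To describe how the strains differ without the transgene, WT mice of each wild-derived strain were compared with B6 WT mice and with each other, averaging over the sexes, with edgeR and p-values adjusted over all genes tested (threshold 0.05). These comparisons share mice, so their counts are given side by side. In CAST, 21 of 40 imprinted genes differed from B6, against 61.4% of all genes tested, 14 of them higher (all genes, 30.3%) and 7 lower (all genes, 31.1%). In WSB, 22 of 40 differed from B6 (47.5% of all genes), and 19 were higher (23.2%) and 3 lower (24.3%). In PWK the count was 23 of 40 (59.2% of all genes), with 16 higher (28.8%) and 7 lower (30.4%). No label names a batch, but the B6 libraries carry another range of library identifiers, so B6 strain and a batch of libraries cannot be told apart. Reads of each strain were aligned to a genome of that strain, so strain and alignment cannot be told apart in any pair of strains. Multimapped reads took 9.89, 12, 9.69 and 11.9% of reads in B6, CAST, WSB and PWK. Reads on no gene took 14.7, 16, 16.1 and 15.2% in the same order. The part of both was not tested. Without B6.*APP/PS1* female 2 and B6 WT male 5, 23, 20 and 21 of 40 differed from B6 in CAST, WSB and PWK, with *Copg2* and *Gnas* gained in CAST, *Grb10* and *Snrpn* lost in WSB and *Commd1* and *Dlk1* lost in PWK.

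The libraries of the wild-derived strains share 3 blocks of 24 consecutive identifiers, in which a strain has from 2 to 7 WT mice, so values within a block rest on few mice. Among these strains, 15 of 40 differed between CAST and PWK (54.8% of all genes), 6 higher in CAST (27.8%) and 9 lower (27.1%). Between WSB and PWK, 17 differed (54.5%), 11 higher in WSB (27.5%) and 6 lower (27%). Between CAST and WSB, 15 differed (54.2%), 3 higher in CAST (27.1%) and 12 lower (27.2%). DESeq2 called 21, 22 and 23 against B6 and 15, 17 and 15 in these pairs, the same numbers. The median absolute log2 difference of the imprinted genes was 0.126, 0.165 and 0.171 for CAST, WSB and PWK against B6, beside 0.272, 0.195 and 0.265 over all genes tested. For CAST against PWK, WSB against PWK and CAST against WSB it was 0.114, 0.112 and 0.107, beside 0.238, 0.237 and 0.231. The median mean level was 58.1 CPM for the imprinted genes tested and 5.45 CPM over all genes tested. The part of level in these medians was not tested.

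*Dio3* and *Magel2* passed the threshold in none of the 6 pairs of strains with edgeR, at the depth of 64 and 517 counts per mouse (medians). Among the alternatives, *Dio3* passed between PWK and B6 with summed markers of choroid plexus, meninges and hypothalamus as covariates. A test of any difference among CAST, WSB and PWK passed the threshold for 24 of 40 (74.1% of all genes). With library block as a covariate it passed for 22, without *Meg3* and *Ndn*. The fitted level was highest in WSB for 12 of the 24, in PWK for 9 and in CAST for 3. The 3 strains spanned at least 0.5 on the log2 scale for 4 genes, *Airn*, *H19*, *Igf2* and *Mkrn3*, and under 0.25 for 12. These splits were not made over all genes, so they cannot show a trait of imprinted genes.

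**Figure D1:**
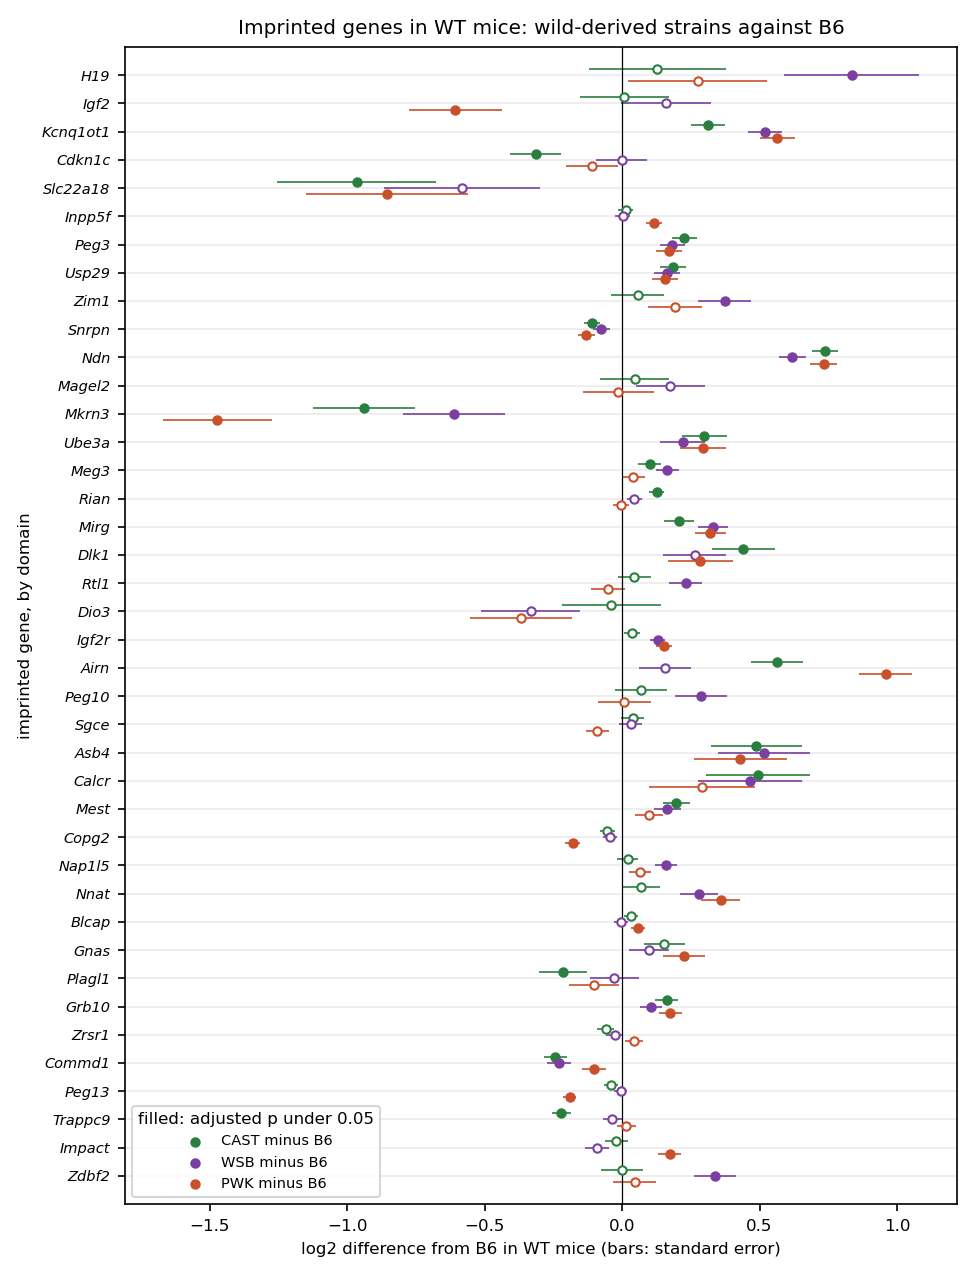
Log2 difference of each tested imprinted gene from B6 in WT mice (horizontal axis), for CAST, WSB and PWK in 3 colours and with genes grouped by domain (vertical axis). Filled points have an adjusted p under 0.05, and bars are standard errors. *Ndn* and *Kcnq1ot1* lie to the right of 0 and *Mkrn3* to the left of 0 in each strain.

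Central chromosome 7 holds the genes of the Prader-Willi and Angelman region. *Ndn* (necdin, a MAGE-family protein that holds back growth of neurons, ENSMUSG00000033585, chr7:62346569-62350262, plus strand) was measured at 97.5 to 155 CPM (median 115) in B6 and 181 to 226 CPM (median 196) in CAST. WSB mice ranged from 167 to 199.9 CPM (median 184), and PWK mice from 171 to 214 CPM (median 202). Here and for the other genes the ranges cover 12 WT mice of B6, CAST and WSB and 11 of PWK. Each of the 12 CAST, 12 WSB and 11 PWK mice lay above the highest B6 mouse, so that B6 did not overlap with any other strain. *Ndn* was 1.67-fold higher than B6 in CAST (log2 0.74, SE 0.048, adjusted p = 6.6e-25), 1.54-fold in WSB (log2 0.62, SE 0.048, adjusted p = 3.8e-20) and 1.66-fold in PWK (log2 0.73, SE 0.049, adjusted p = 3.85e-24). Among the wild-derived strains the levels overlapped, and WSB was lowest by its median. The log2 difference of CAST from WSB was 0.12 (SE 0.048, adjusted p = 0.0281), with 0.08, 0.23 and -0.01 within the library blocks, and that of WSB from PWK -0.11 (SE 0.049, adjusted p = 0.0414), with -0.01, -0.15 and -0.08. With library block as a covariate these adjusted p-values were 0.0575 and 0.0875 (ranges over the alternatives, 0.00259 to 0.0575 and 0.0300 to 0.179). The call between WSB and PWK was also lost in a fit of WT mice only, without PWK WT female 1, 2 or 5 and with the marker sums described for *Snrpn* as covariates.

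*Mkrn3* (makorin ring finger protein 3, a ubiquitin ligase whose loss on the paternal allele brings early puberty in humans, ENSMUSG00000070527, chr7:62417593-62420139, minus strand) was highest in B6. Its level was 0.576 to 1.48 CPM (median 1.25) in B6 and 0.227 to 0.938 CPM (median 0.623) in CAST. The range was 0.462 to 1.12 CPM (median 0.765) in WSB and 0.299 to 0.69 CPM (median 0.438) in PWK. PWK was lowest, with 10 of 11 PWK mice under every B6 mouse, and the lowest B6 mouse, at 0.576 CPM, lay within the range of each other strain. The log2 difference from B6 was -0.94 (SE 0.19, adjusted p = 8.74e-06) in CAST, -0.61 (SE 0.18, adjusted p = 0.00414) in WSB and -1.47 (SE 0.20, adjusted p = 4.61e-10) in PWK. WSB exceeded PWK by 0.86 (SE 0.20, adjusted p = 0.00014), with 0.59, 0.45 and 1.24 within the blocks and 8 of 12 WSB mice above every PWK mouse. CAST exceeded PWK by 0.53 (SE 0.20, adjusted p = 0.0193), and 5 of 12 CAST mice lay above every PWK mouse. Within the blocks that difference was 0.06, 0.10 and 0.87.

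*Snrpn* and *Ube3a*, a ubiquitin ligase expressed from the maternal allele in neurons and lost in Angelman syndrome, differed from B6 in opposite directions and by less. *Snrpn* was lower than B6, with log2 differences of -0.11, -0.08 and -0.13 in CAST, WSB and PWK (adjusted p = 0.000992, 0.0305 and 0.000149). Its call in WSB was lost without B6.*APP/PS1* female 2 and B6 WT male 5, in a fit of WT mice only and, in a fit chosen after the values were seen, with summed markers of choroid plexus, meninges and hypothalamus as covariates. *Ube3a* was higher, by 0.30, 0.22 and 0.29 in CAST, WSB and PWK (adjusted p = 0.00101, 0.0202 and 0.00159), with medians of 156 CPM in B6 and 186, 178 and 196 CPM in CAST, WSB and PWK. *Magel2*, a MAGE-family gene of hypothalamic neurons, had medians of 7.5, 7.67, 8.53 and 7.13 CPM in B6, CAST, WSB and PWK, and its ranges overlapped throughout.

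Distal chromosome 7 holds *Igf2*, a growth factor of the fetus that in adult brain is made by choroid plexus and leptomeninges, next to *H19*, an RNA that restrains growth. *Igf2* (ENSMUSG00000048583, chr7:142650766-142666816, minus strand) was measured at 31.4 to 97.3 CPM (median 60.4) in B6 and 32.1 to 91 CPM (median 70.1) in CAST. In WSB it ranged from 36.9 to 94.6 CPM (median 74.1), and in PWK from 16.8 to 59.5 CPM (median 45.1). PWK was the lowest strain, and 8 of 12 CAST and 9 of 12 WSB mice lay above every PWK mouse, while the ranges of B6, CAST and WSB overlapped widely. PWK was lower than B6, at log2 -0.61 (SE 0.17, adjusted p = 0.00136). CAST exceeded PWK by 0.62 (SE 0.17, adjusted p = 0.00128), with 0.35, 0.82 and 0.57 within the blocks, and WSB exceeded PWK by 0.77 (SE 0.17, adjusted p = 6.79e-05), with 0.30, 1.11 and 1.02. Genes that mark meninges and fibroblasts differed in the same comparisons, where 7 of 9 were called between PWK and B6 (all genes, 59.2%, and 6 lower in PWK), 7 of 9 between CAST and PWK (all genes, 54.8%, and each higher in CAST) and 8 of 9 between WSB and PWK (all genes, 54.5%, and 7 higher in WSB). The summed level of these markers was 31.4 to 92.3 CPM (median 57) in B6, 29.7 to 91.2 CPM (median 73.7) in CAST, 40.3 to 109 CPM (median 76.9) in WSB and 22 to 62.3 CPM (median 29.6) in PWK. Between CAST or WSB and B6, 3 and 1 of 9 were called (all genes, 61.4% and 47.5%). *Col1a2* was the most abundant (26.1% of the sum) and no marker was at 0 in most mice. In a fit chosen after the values were seen, with the summed choroid plexus, meninges and hypothalamus markers of each mouse as covariates, the *Igf2* differences of PWK from B6, CAST from PWK and WSB from PWK were -0.027 (adjusted p = 0.724), -0.047 (adjusted p = 0.561) and -0.039 (adjusted p = 0.65). Their adjusted p-values over all alternatives ranged from 0.000793 to 0.724, 0.000695 to 0.561 and 1.71e-05 to 0.65. In RNA of a whole hemisphere, fewer cells of a type and less RNA per cell cannot be told apart.

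*H19* (ENSMUSG00000000031, chr7:142575529-142578143, minus strand) had low counts, at 0.0796 to 0.846 CPM (median 0.207) in B6 and 0.157 to 0.531 CPM (median 0.25) in CAST. WSB mice ranged from 0.198 to 0.896 CPM (median 0.431), and PWK mice from 0.172 to 0.499 CPM (median 0.332). WSB was the highest strain by its median, and the ranges of all 4 strains overlapped, with 5 of 12 WSB mice above every PWK mouse. WSB exceeded B6 by log2 0.83 (SE 0.25, adjusted p = 0.00328), and CAST was lower than WSB, at log2 -0.71 (SE 0.24, adjusted p = 0.0102), with -0.47, -1.08 and -0.73 within the blocks. The difference of WSB from PWK was 0.56 (SE 0.25, adjusted p = 0.0473), and within the blocks it was -0.10, 1.14 and 0.72. It lost its call without PWK WT female 1 (0.53, adjusted p = 0.0752) or female 5 (0.47, adjusted p = 0.107), with library block as a covariate (adjusted p = 0.0519), without the count filter (adjusted p = 0.0755) and in a fit of WT mice only (adjusted p = 0.0576). It was -0.035 (adjusted p = 0.924) with the marker sums as covariates (range over the alternatives, 0.0379 to 0.924).

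In the *Kcnq1* domain, *Kcnq1ot1* (ENSMUSG00000101609, chr7:143203458-143296549, minus strand) is a long antisense RNA that silences its neighbours on the paternal chromosome. Its level was 77.6 to 106 CPM (median 95) in B6 and 92.1 to 142 CPM (median 113) in CAST. The range was 112 to 159.8 CPM (median 132) in WSB and 112 to 175 CPM (median 136) in PWK. WSB and PWK did not overlap with B6, and 8 of 12 CAST mice lay above every B6 mouse. The log2 difference from B6 was 0.31 (SE 0.062, adjusted p = 8.43e-06) in CAST, 0.52 (SE 0.062, adjusted p = 1.23e-11) in WSB and 0.56 (SE 0.063, adjusted p = 6.48e-13) in PWK. CAST was lower than PWK, at log2 -0.25 (SE 0.063, adjusted p = 0.000383), with -0.43, -0.39 and -0.07 within the blocks, and lower than WSB, at log2 -0.21 (SE 0.062, adjusted p = 0.00268), with -0.19, -0.25 and -0.09.

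2 genes of the same domain, both expressed from the maternal allele, had their lowest medians in CAST. *Cdkn1c*, which encodes the inhibitor of cyclin-dependent kinases p57Kip2 (ENSMUSG00000037664, chr7:143458339-143461050, minus strand), was measured at 2.5 to 3.97 CPM (median 3.01) in B6 and 1.73 to 3.53 CPM (median 2.39) in CAST. In WSB it ranged from 2.38 to 3.63 CPM (median 3.18), and in PWK from 2.31 to 3.57 CPM (median 2.96). The ranges of the strains overlapped, with 7 of 12 CAST mice under every B6 mouse. The log2 difference of CAST was -0.31 (SE 0.093, adjusted p = 0.0024) from B6 and -0.31 (SE 0.093, adjusted p = 0.00298) from WSB, with -0.29, -0.37 and -0.29 within the blocks. *Slc22a18*, of the organic cation transporter family (ENSMUSG00000000154, chr7:143473736-143499334, plus strand), was low throughout, at 0.292 to 0.997 CPM (median 0.439) in B6 and 0.0997 to 0.512 CPM (median 0.248) in CAST. WSB mice ranged from 0.156 to 0.714 CPM (median 0.345), and PWK mice from 0.127 to 0.448 CPM (median 0.315). B6 was highest by its median, and 8 of 12 CAST, 5 of 12 WSB and 4 of 11 PWK mice lay under every B6 mouse. The log2 difference from B6 was -0.97 (SE 0.29, adjusted p = 0.00272) in CAST, -0.58 (SE 0.29, adjusted p = 0.0846) in WSB and -0.86 (SE 0.29, adjusted p = 0.00962) in PWK. With the marker sums as covariates, the value for PWK against B6 became -0.47 (adjusted p = 0.183), and over the alternatives its adjusted p ranged from 0.00469 to 0.183.

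On chromosome 17, *Airn* (ENSMUSG00000078247, chr17:12741311-12860136, plus strand) is the antisense RNA that silences *Igf2r*, the receptor that clears IGF2, on the paternal chromosome. *Airn* was measured at 3.66 to 6.15 CPM (median 4.87) in B6 and 6.5 to 8.72 CPM (median 7.35) in CAST. The range was 4.12 to 7.03 CPM (median 5.15) in WSB and 6.71 to 12.3 CPM (median 9.79) in PWK. PWK was highest and CAST next, and neither overlapped with B6. WSB overlapped with B6, and 11 of 12 WSB mice lay under every PWK mouse. *Airn* was 1.94-fold higher than B6 in PWK (log2 0.96, SE 0.096, adjusted p = 5.72e-15) and 1.48-fold in CAST (log2 0.56, SE 0.094, adjusted p = 2.26e-07), while the WSB difference of 0.16 (SE 0.095, adjusted p = 0.174) did not pass the threshold. CAST was lower than PWK, at log2 -0.40 (SE 0.094, adjusted p = 0.000213), with -0.63, -0.31 and -0.30 within the blocks. WSB was lower than PWK, at log2 -0.80 (SE 0.096, adjusted p = 7.98e-12), with -0.98, -0.70 and -0.74, and CAST exceeded WSB by 0.41 (SE 0.094, adjusted p = 0.000139), with 0.35, 0.39 and 0.44.

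*Igf2r* differed by less than its antisense RNA in CAST and PWK. Its medians were 66.4, 66.8, 71.5 and 72.4 CPM in B6, CAST, WSB and PWK. The log2 differences from B6 were 0.03, 0.13 and 0.15 in CAST, WSB and PWK (adjusted p = 0.292, 9.49e-05 and 3.87e-06).

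Proximal chromosome 7 holds the zinc-finger genes *Peg3* and *Zim1* and *Usp29*, of the ubiquitin-specific peptidases. *Zim1* (ENSMUSG00000002266, chr7:6671269-6696450, minus strand) was measured at 8.71 to 18 CPM (median 14.2) in B6 and 11.4 to 17.2 CPM (median 15.3) in CAST. In WSB it ranged from 14.5 to 22.3 CPM (median 18.8), and in PWK from 13 to 19.3 CPM (median 16). WSB was highest, with 8 of 12 WSB mice above every B6 mouse. WSB exceeded B6 by log2 0.37 (SE 0.096, adjusted p = 0.000783), and CAST was lower than WSB, at log2 -0.32 (SE 0.096, adjusted p = 0.00353), with -0.30, -0.15 and -0.56 within the blocks. *Peg3* and *Usp29* were both higher than B6 in every other strain. *Peg3* differed from B6 by 0.23, 0.18 and 0.17 in CAST, WSB and PWK (adjusted p = 1.14e-05, 0.000547 and 0.00115), and *Usp29* by 0.19, 0.16 and 0.16 in CAST, WSB and PWK (adjusted p = 0.000429, 0.00266 and 0.00403). The lowest *Peg3* levels of all B6 mice were 507 CPM in WT male 5 and 515 CPM in *APP/PS1* female 2, the mice that stood apart.

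On chromosome 12, the non-coding RNAs *Meg3*, *Rian* (a host of small nucleolar RNAs) and *Mirg* (a host of microRNAs) are expressed from the maternal chromosome, and the coding genes *Dlk1*, *Rtl1* and *Dio3* from the paternal chromosome. *Rtl1*, derived from a retrotransposon (ENSMUSG00000085925, chr12:109589193-109600330, minus strand), was measured at 8.01 to 11.5 CPM (median 10.2) in B6 and 8.19 to 12.2 CPM (median 10.4) in CAST. WSB mice ranged from 9.88 to 13.6 CPM (median 11.4), and PWK mice from 7.15 to 12.8 CPM (median 9.66). WSB was highest, with the ranges of the 4 strains overlapping and 6 of 12 WSB mice above every B6 mouse. WSB exceeded B6 by log2 0.23 (SE 0.06, adjusted p = 0.000851) and PWK by 0.28 (SE 0.061, adjusted p = 5.46e-05), the latter with -0.02, 0.30 and 0.38 within the blocks. CAST was lower than WSB, at log2 -0.19 (SE 0.06, adjusted p = 0.00567), with -0.06, -0.27 and -0.20. Of the maternal RNAs, *Mirg* was higher than B6 by 0.21, 0.33 and 0.32 in CAST, WSB and PWK (adjusted p = 0.000754, 2.91e-07 and 6.31e-07). *Meg3* was higher than B6 by 0.10 and 0.16 in CAST and WSB (adjusted p = 0.0335 and 0.000682), and *Rian* was higher in CAST, by 0.13 (adjusted p = 4.56e-05). *Dlk1*, a transmembrane protein related to Notch ligands, had medians of 32.3, 41.9, 41.1 and 40.9 CPM in B6, CAST, WSB and PWK, and exceeded B6 by 0.44 and 0.28 in CAST and PWK (adjusted p = 0.000572 and 0.0309). In WSB, with a fitted level of 5.29 log2 CPM against 5.03 in B6, *Dlk1* did not pass the threshold. It passed there with DESeq2's size factors in edgeR and in a fit of WT mice only. The call of *Dlk1* in PWK was lost without the B6 mice that stood apart, without PWK WT female 2 and with the marker sums as covariates, and that of *Meg3* in CAST without the count filter and with these covariates. *Dio3*, the deiodinase that inactivates thyroid hormone, had medians of 1.11, 1.07, 0.843 and 0.825 CPM in B6, CAST, WSB and PWK.

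Chromosome 6 holds *Peg10*, another gene derived from a retrotransposon, beside *Sgce* (epsilon-sarcoglycan), *Asb4* and *Calcr* (the calcitonin receptor). *Peg10* (ENSMUSG00000092035, chr6:4747306-4760517, plus strand) was measured at 45 to 92.8 CPM (median 69.6) in B6 and 60.3 to 98.6 CPM (median 70.4) in CAST. The range was 62.1 to 101 CPM (median 85.6) in WSB and 59.2 to 87.6 CPM (median 68.4) in PWK. WSB was highest and the other strains were alike in their medians, with 6 of 12 WSB mice above every PWK mouse. WSB exceeded B6 by log2 0.29 (SE 0.094, adjusted p = 0.00876) and PWK by 0.28 (SE 0.096, adjusted p = 0.011), the latter with 0.21, 0.22 and 0.48 within the blocks. CAST was lower than WSB, at log2 -0.22 (SE 0.094, adjusted p = 0.0437), with -0.10, -0.14 and -0.49, and this call was lost with a replicate block (adjusted p = 0.0511). With the marker sums as covariates none of these passed the threshold, at 0.15 (adjusted p = 0.115), 0.19 (adjusted p = 0.0822) and -0.12 (adjusted p = 0.178), with ranges of the adjusted p over the alternatives of 0.00263 to 0.115, 0.00349 to 0.0822 and 0.0177 to 0.178. *Asb4* and *Calcr*, at medians of 2.04 and 1.87 CPM in B6, had log2 differences from B6 of 0.49, 0.52 and 0.43 in CAST, WSB and PWK (adjusted p = 0.00832, 0.00739 and 0.0243) and of 0.49, 0.46 and 0.29 in CAST, WSB and PWK (adjusted p = 0.0181, 0.0349 and 0.192), so that *Calcr* did not pass the threshold in PWK. Both lost their call in WSB with the marker sums as covariates, and *Asb4* lost that in PWK without PWK WT female 1. *Copg2*, a coatomer subunit, was lower than B6 in PWK (-0.18, adjusted p = 1.1e-08), *Mest*, of a hydrolase family, higher than B6 in CAST and WSB (0.20 and 0.16, adjusted p = 0.000469 and 0.00486), and *Nap1l5* higher than B6 in WSB (0.16, adjusted p = 0.000413). *Copg2* and *Mest* share exon bases, and how reads on those bases were counted is not stated.

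On chromosome 2, *Nnat* (neuronatin, a small proteolipid of the endoplasmic reticulum, ENSMUSG00000067786, chr2:157560078-157562522, plus strand) lies within the bounds of *Blcap*. It was measured at 80.9 to 126 CPM (median 109.5) in B6 and 76.9 to 128 CPM (median 116) in CAST. In WSB it ranged from 103 to 172 CPM (median 129.7), and in PWK from 119 to 151 CPM (median 139). PWK and WSB were highest, with 10 of 11 PWK and 7 of 12 WSB mice above every B6 mouse. The log2 difference from B6 was 0.28 (SE 0.069, adjusted p = 0.000464) in WSB and 0.36 (SE 0.071, adjusted p = 7.86e-06) in PWK. CAST was lower than PWK, at log2 -0.29 (SE 0.071, adjusted p = 0.000297), with -0.37, -0.25 and -0.35 within the blocks, and lower than WSB, at log2 -0.21 (SE 0.069, adjusted p = 0.00753), with -0.15, -0.21 and -0.37. *Blcap* differed from B6 in PWK by 0.06 (adjusted p = 0.0383), a call lost without PWK WT female 2, 4 or 5 and with the marker sums as covariates, and *Gnas*, which encodes the G-protein subunit Gs alpha, by 0.23 (adjusted p = 0.00761).

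*Impact* (ENSMUSG00000024423, chr18:12955852-12992950, plus strand) was measured at 327 to 377 CPM (median 354) in B6 and 321 to 392 CPM (median 347) in CAST. WSB mice ranged from 295 to 354 CPM (median 333), and PWK mice from 355 to 423 CPM (median 398). PWK was highest and WSB lowest, and no WSB mouse reached the lowest PWK mouse. WSB was lower than PWK, at log2 -0.26 (SE 0.044, adjusted p = 1.76e-07), with -0.22, -0.24 and -0.30 within the blocks, and CAST lower than PWK, at log2 -0.19 (SE 0.044, adjusted p = 9.17e-05), with -0.14, -0.14 and -0.26. PWK exceeded B6 by 0.17 (SE 0.044, adjusted p = 0.000418), with 10 of 11 PWK mice above every B6 mouse. *Zdbf2*, a zinc-finger gene of chromosome 1 (ENSMUSG00000027520, chr1:63273265-63314576, plus strand), was measured at 32.5 to 70.1 CPM (median 59.4) in B6 and 48.8 to 66.2 CPM (median 57.6) in CAST. The range was 60.8 to 87.1 CPM (median 73.5) in WSB and 49.8 to 70.2 CPM (median 60.2) in PWK. WSB stood highest, with 10 of 12 WSB mice above every B6 mouse and 10 of 12 above every PWK mouse. WSB exceeded B6 by 0.34 (SE 0.077, adjusted p = 0.000148) and PWK by 0.29 (SE 0.079, adjusted p = 0.00104), the latter with 0.18, 0.26 and 0.49 within the blocks, and CAST was lower than WSB, at log2 -0.34 (SE 0.077, adjusted p = 0.000105), with -0.29, -0.32 and -0.51.

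*Peg13* and its host *Trappc9*, a subunit of the vesicle-tethering TRAPP complex, each set a single strain apart. *Peg13* was lowest in PWK, where no mouse overlapped with B6 (-0.19, adjusted p = 9.0e-11), and CAST and WSB exceeded PWK by 0.15 (adjusted p = 1.23e-07) and 0.19 (adjusted p = 2.55e-10). *Trappc9* was lowest in CAST, with log2 differences of -0.22, -0.04 and 0.02 of CAST, WSB and PWK from B6 (adjusted p = 3.81e-08, 0.409 and 0.733), and of -0.24 (adjusted p = 1.39e-08) of CAST from PWK. *Grb10*, an adaptor of the insulin receptor, was higher than B6 by 0.16, 0.11 and 0.18 in CAST, WSB and PWK (adjusted p = 0.000479, 0.0300 and 0.000235), while *Commd1*, a regulator of copper and NF-kappaB, was lower, with log2 differences of -0.24, -0.23 and -0.10 in CAST, WSB and PWK (adjusted p = 8.04e-07, 5.21e-06 and 0.037). Without the B6 mice that stood apart the calls of *Grb10* in WSB and *Commd1* in PWK were lost, the former also with the marker sums as covariates and the latter also without the count filter and without PWK WT female 2 or 3. *Inpp5f*, an inositol phosphatase, was higher than B6 in PWK (0.12, adjusted p = 0.00034), and *Plagl1*, a zinc-finger transcription factor, lower in CAST (-0.22, adjusted p = 0.0287). *Zrsr1*, related to the splicing factor U2AF, and *Sgce* passed the threshold against B6 in none of the strains with edgeR, and CAST differed from PWK by -0.10 (adjusted p = 0.00383) and 0.13 (adjusted p = 0.00814). Among the alternatives, *Sgce* passed between PWK and B6 without PWK WT female 2 and with the marker sums as covariates.

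**Figure D2:**
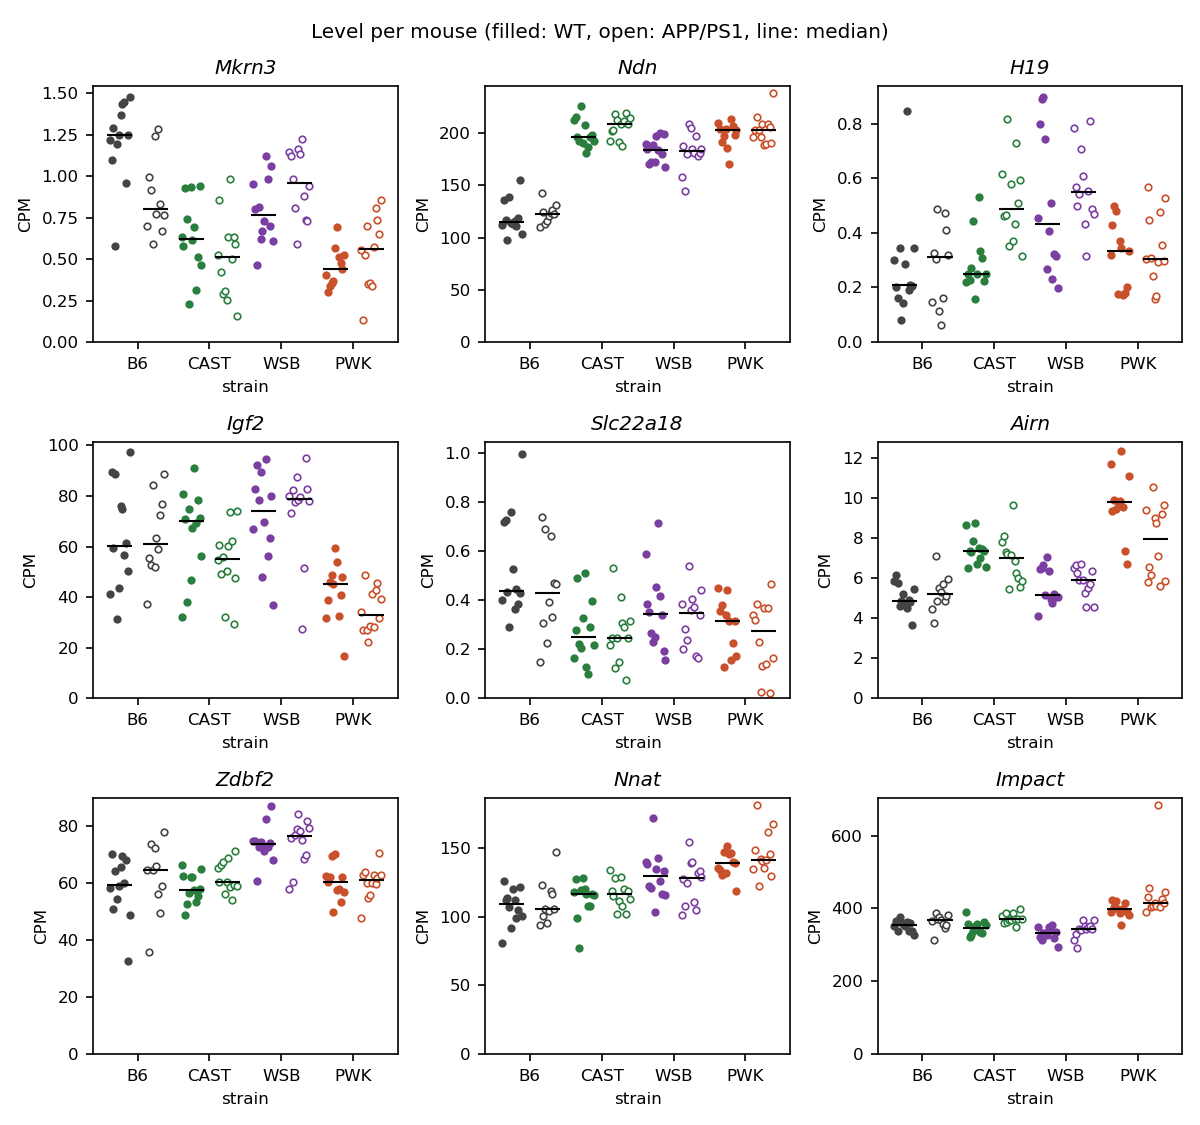
Level in CPM (vertical axis) of *Mkrn3*, *Ndn*, *H19*, *Igf2*, *Slc22a18*, *Airn*, *Zdbf2*, *Nnat* and *Impact* in each mouse by strain (horizontal axis), filled for WT and open for *APP/PS1*. Lines are group medians. For *Ndn*, every WT mouse of CAST, WSB and PWK lies above the highest B6 WT mouse.

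The textbook class of the expressed allele was not measured in this tissue. By this class, 10 of 15 (6 higher and 4 lower) maternal and 10 of 23 (7 higher and 3 lower) paternal genes differed between CAST and B6, beside 61.4% of all genes tested. The counts for WSB were 9 of 15 (8 higher and 1 lower) and 12 of 23 (10 higher and 2 lower), beside 47.5%, and those for PWK 8 of 15 (5 higher and 3 lower) and 13 of 23 (9 higher and 4 lower), beside 59.2%. Between CAST and PWK they were 5 of 15 (2 higher and 3 lower) and 10 of 23 (4 higher and 6 lower), beside 54.8%. Between WSB and PWK they were 5 of 15 (3 higher and 2 lower) and 12 of 23 (8 higher and 4 lower), beside 54.5%, and between CAST and WSB 7 of 15 (1 higher and 6 lower) and 8 of 23 (2 higher and 6 lower), beside 54.2%.

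To describe the response to the transgene, *APP/PS1* mice were compared with WT mice of the same strain. With edgeR, 0 of 40 imprinted genes passed the threshold in B6 (0.224% of all genes tested did), 0 in CAST (0.658%), 0 in WSB (0.375%) and 0 in PWK (2.04%). At an unadjusted p under 0.05 there were 1, 3, 2 and 4, beside 1330, 1848, 1826 and 2836 of 23702 genes, and DESeq2 called 0, 0, 0 and 1. The median absolute log2 difference of the 40 was 0.0345, 0.046, 0.027 and 0.0362 in B6, CAST, WSB and PWK, beside 0.0569, 0.0591, 0.0594 and 0.0693 over all genes. Levels were not matched here (median mean level 58.1 CPM for the 40 and 5.45 CPM over all genes tested). The 95% interval of the log2 difference lay within 0.5 of 0 in B6, CAST, WSB and PWK for 35, 35, 37 and 33 of 40. The share over all genes was not computed, so these counts cannot set imprinted genes apart from other genes.

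The gene with the smallest p in each strain is given by its values. In B6, *Mkrn3* ranged over 0.576 to 1.48 CPM (median 1.25) in WT and 0.589 to 1.28 CPM (median 0.803) in *APP/PS1* mice, with wide overlap and a log2 difference of -0.48 (SE 0.20, adjusted p = 0.714). In CAST, *H19* was 0.157 to 0.531 CPM (median 0.25) in WT and 0.314 to 0.817 CPM (median 0.487) in *APP/PS1* mice. The *APP/PS1* mice of CAST were higher by their median but overlapped with WT, at 1.79-fold (log2 0.84, SE 0.24, adjusted p = 0.0939). *H19* passed the threshold in a fit of CAST mice only and with the marker sums as covariates, and in none of the other 5 alternatives. In WSB, *Mirg* was 31 to 38.6 CPM (median 34.1) in WT and 27.2 to 35.1 CPM (median 30.5) in *APP/PS1* mice, lower by its median, with a difference of -0.17 (SE 0.055, adjusted p = 0.222). In PWK, *Airn* was 6.71 to 12.3 CPM (median 9.79) in WT and 5.57 to 10.5 CPM (median 7.92) in *APP/PS1* mice, again lower by its median, at -0.32 (SE 0.094, adjusted p = 0.0507), and was the gene that DESeq2 called. *Impact* in PWK was next, at 0.14 (SE 0.044, adjusted p = 0.0593). It was 355 to 423 CPM (median 398) in WT and 389 to 684 CPM (median 415) in *APP/PS1* mice. The part of the *APP/PS1* mouse at 684 CPM in the difference was not tested.

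Whether the response differed between the strains was tested with an F test. It passed the threshold for 0 of 40 with edgeR (0.473% of all genes), for 3 at an unadjusted p under 0.05 (2046 of 23702 genes) and for 0 with DESeq2. The smallest p-values were those of *Mkrn3* (adjusted p = 0.31), *Mirg* (adjusted p = 0.341) and *Airn* (adjusted p = 0.446). *Mkrn3* had log2 differences from WT of -0.48, -0.31, 0.27 and 0.31 in B6, CAST, WSB and PWK.

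In the same comparisons, 4 of 6 microglia markers were higher in *APP/PS1* mice of each strain, among them *Trem2* with log2 differences of 0.43, 0.76, 0.57 and 0.91 (adjusted p = 9.3e-05, 7.51e-14, 1.12e-08 and 5.3e-18). Of 6 astrocyte markers only *Gfap* passed the threshold, higher in each strain.

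**Figure D3:**
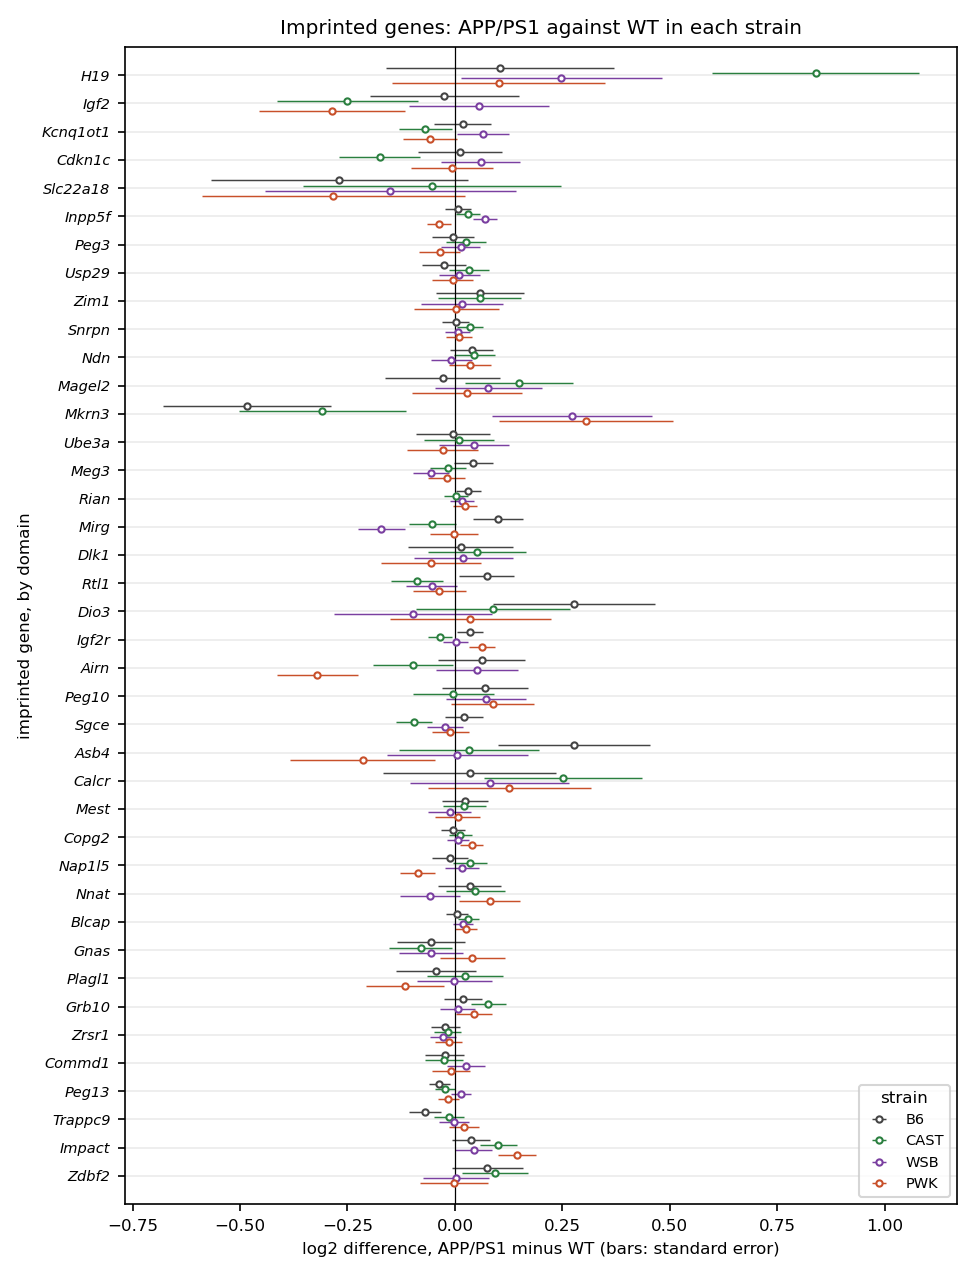
Log2 difference of *APP/PS1* from WT mice for each tested imprinted gene (vertical axis) in B6, CAST, WSB and PWK, with standard errors as bars. No imprinted gene had an adjusted p under 0.05 with edgeR, and *H19* in CAST and *Mkrn3* in B6 lie farthest from 0.

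Females and males were compared over all strains and genotypes. With edgeR 0 of 40 imprinted genes passed the threshold (1.77% of all genes), 3 had an unadjusted p under 0.05 (3364 of 23702 genes did), and DESeq2 called 0. The 95% interval lay within 0.5 of 0 for all 40 imprinted genes tested, and the share over all genes was not computed. The smallest p was that of *Mkrn3*, -0.27 (SE 0.097, adjusted p = 0.151) in females relative to males.

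Neighbouring imprinted genes were compared across the mice of the same group, as deviations of log2 CPM from the group mean in 93 mice, for 19 pairs, with permutation tests within groups and p-values adjusted over the 19. 13 pairs passed the threshold, 12 with a positive and 1 with a negative correlation, and no other pairs of genes were tested. For each, r and rho are given with their permutation p and adjusted p. The smallest p that the permutations can give is 1e-05. *Peg3* and *Zim1*, neighbours expressed from opposite alleles, varied together (r = 0.74, permutation p = 1e-05, adjusted p = 3.8e-05, and rho = 0.71, permutation p = 1e-05, adjusted p = 2.37e-05), and r was 0.72 without the 2 mice farthest from the median, 0.76, 0.82 and 0.69 within the 3 library blocks and 0.83 within the B6 libraries. So did *Peg3* and *Usp29* (r = 0.67, permutation p = 1e-05, adjusted p = 3.8e-05, and rho = 0.62, permutation p = 1e-05, adjusted p = 2.37e-05), with r at 0.61 without the 2 mice farthest from the median, 0.60, 0.65 and 0.67 within the 3 library blocks and 0.79 within the B6 libraries. *Asb4* and *Calcr* gave r = 0.63, permutation p = 1e-05, adjusted p = 3.8e-05, and rho = 0.60, permutation p = 1e-05, adjusted p = 2.37e-05, and r was 0.60 without the 2 mice farthest from the median, 0.62, 0.82 and 0.54 within the 3 library blocks and 0.58 within the B6 libraries. Their counts reached down to 86 and 33 per mouse.

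*Snrpn* and *Ube3a*, which share the central domain of chromosome 7 and are expressed from opposite alleles, gave the negative correlation (r = -0.56, permutation p = 1e-05, adjusted p = 3.8e-05, and rho = -0.54, permutation p = 1e-05, adjusted p = 2.37e-05). It kept its sign throughout, at -0.43 without the 2 mice farthest from the median, -0.36, -0.35 and -0.56 within the 3 library blocks and -0.77 within the B6 libraries. The mice that stood apart, B6.*APP/PS1* female 2 and B6 WT male 5, had the lowest *Ube3a* of the B6 mice, 86.9 and 105 CPM, and the highest *Snrpn*, 310.5 and 335 CPM. *Ndn* and *Magel2* were positively correlated (r = 0.42, permutation p = 0.00057, adjusted p = 0.00108, and rho = 0.51, permutation p = 1e-05, adjusted p = 2.37e-05), with r at 0.47 without the 2 mice farthest from the median, 0.76, 0.81 and 0.60 within the 3 library blocks and -0.19 within the B6 libraries. *H19* and *Igf2*, which share enhancers, gave r = 0.45, permutation p = 2e-05, adjusted p = 6.33e-05, and rho = 0.51, permutation p = 1e-05, adjusted p = 2.37e-05, with r at 0.47 without the 2 mice farthest from the median, 0.72, 0.15 and 0.23 within the 3 library blocks and 0.61 within the B6 libraries. *Meg3* and *Rian* gave r = 0.53, permutation p = 1e-05, adjusted p = 3.8e-05, and rho = 0.52, permutation p = 1e-05, adjusted p = 2.37e-05, with r at 0.52 without the 2 mice farthest from the median, 0.57, 0.31 and 0.61 within the 3 library blocks and 0.63 within the B6 libraries. *Airn* and *Igf2r* did not pass the threshold (r = 0.08, permutation p = 0.517, adjusted p = 0.578, and rho = -0.02, permutation p = 0.859, adjusted p = 0.859), with r at -0.03 without the 2 mice farthest from the median, -0.03, -0.15 and -0.33 within the 3 library blocks and 0.56 within the B6 libraries.

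The other pairs past the threshold were *Snrpn* and *Ndn*, *Peg13* and *Trappc9*, *Mest* and *Copg2*, *Meg3* and *Mirg*, *Nnat* and *Blcap*, and *Zrsr1* and *Commd1*, with r from 0.26 to 0.51 and rho from 0.27 to 0.52 (permutation p from 7e-05 to 0.0131 for r and from 1e-05 to 0.0157 for rho, adjusted p up to 0.0191 and 0.023). Without the 2 mice farthest from the median their r ran from 0.28 to 0.44, and within the blocks from 0.11 to 0.84. Within the B6 libraries r ran from 0.08 (*Peg13* and *Trappc9*) to 0.73 (*Snrpn* and *Ndn*). In several of these pairs a gene lies within the bounds of the other or shares exon bases with it, as *Zrsr1* and *Commd1* share 412, and the part of reads counted for both was not tested. The remaining 5 pairs, *Kcnq1ot1* and *Cdkn1c*, *Rian* and *Mirg*, *Meg3* and *Dlk1*, *Peg10* and *Sgce*, and *Gnas* and *Nespas*, had r from 0.02 to 0.23 and rho from 0.05 to 0.18 (permutation p from 0.0461 to 0.852 and from 0.106 to 0.666).

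Several of these genes are highest in small parts of the brain or its coverings. Relations of every tested gene with the summed markers of hypothalamus (13 genes found of 14, without *Kiss1*), of meninges and fibroblasts (9) and of choroid plexus (15) were computed over 93 mice as deviations from the group mean, a step chosen after the values were seen. For each list, permutation p-values were adjusted over all genes tested outside that list. The counts are those of r and, for the members, cover 40 imprinted genes per list. For hypothalamus, 12 of 40 were positively related (0.903% of all genes) and 0 negatively (0.713%), and the median r was 0.152 against -0.00113 over all genes. For meninges and fibroblasts, 6 of 40 were positive (4.59%) and 3 negative (4.83%), with a median r of 0.0782 against 0.00115. For choroid plexus, 1 was positive (1.07%) and 0 negative (0.101%), with a median r of 0.0391 against 0.00279.

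By the adjusted p of r, the 12 genes related to the hypothalamus markers were *Magel2*, *Asb4*, *Dlk1*, *Calcr*, *Peg10*, *Nnat*, *Zim1*, *Grb10*, *Usp29*, *Gnas*, *Ndn* and *Zdbf2*. By that of rho, *Impact*, *Plagl1* and *Nap1l5* passed as well (adjusted p = 0.0147, 0.028 and 0.0376). *Magel2* gave r = 0.66 (permutation p = 1e-05, adjusted p = 0.00289) and rho = 0.72 (permutation p = 1e-05, adjusted p = 0.00188), with r at 0.75 without the 2 mice farthest from the median, 0.78, 0.78 and 0.55 within the blocks and 0.63 within the B6 libraries. *Asb4*, which is known from neurons of the arcuate nucleus, gave r = 0.62 (permutation p = 1e-05, adjusted p = 0.00289) and rho = 0.68 (permutation p = 1e-05, adjusted p = 0.00188), with r at 0.70 without the 2 mice farthest from the median, 0.71, 0.76 and 0.48 within the blocks and 0.72 within the B6 libraries. *Dlk1* gave r = 0.57 (permutation p = 1e-05, adjusted p = 0.00289) and rho = 0.56 (permutation p = 1e-05, adjusted p = 0.00188), with r at 0.64 without the 2 mice farthest from the median, 0.68, 0.79 and 0.38 within the blocks and 0.54 within the B6 libraries. The summed hypothalamus markers had WT ranges of 17.2 to 42 CPM (median 30.8) in B6, 19.3 to 50.4 CPM (median 32.3) in CAST, 23.1 to 59.8 CPM (median 42.1) in WSB and 19.2 to 48.8 CPM (median 34) in PWK, with *Trh* the most abundant gene (19% of the sum). 5, 6 and 5 of the 13 differed from B6 in CAST, WSB and PWK, beside 61.4%, 47.5% and 59.2% of all genes (4, 5 and 4 of the markers were higher). Between CAST and PWK, WSB and PWK, and CAST and WSB, edgeR called 0, 0 and 1 of the 13, beside 54.8%, 54.5% and 54.2% of all genes. At an unadjusted p under 0.05 these counts were 1, 2 and 3. With the marker sums as covariates, 20, 19 and 22 imprinted genes were called against B6 in place of 21, 22 and 23, with calls both lost and gained. CAST lost *Meg3*. WSB lost *Asb4*, *Calcr*, *Grb10*, *Peg10* and *Snrpn* and gained *Impact* and *Slc22a18*, and PWK lost *Blcap*, *Dlk1*, *Igf2* and *Slc22a18* and gained *Dio3*, *H19* and *Sgce*. Between WSB and PWK, 13 were called in place of 17, beside 11781 in place of 12910 of all 23702 genes. *Blcap*, *Commd1*, *H19*, *Igf2*, *Meg3*, *Ndn* and *Peg10* were lost there, and *Grb10*, *Nnat* and *Snrpn* gained. The counts were 17 in place of 15 between CAST and PWK, 16 in place of 15 between CAST and WSB and 22 in place of 24 in the F test.

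By r, the meninges markers were related positively to *Igf2*, *Nnat*, *Cdkn1c*, *H19*, *Slc22a18* and *Plagl1* and negatively to *Snrpn*, *Peg13* and *Commd1*. By rho *Plagl1* did not pass (adjusted p = 0.0592). *Igf2* gave r = 0.89 (permutation p = 1e-05, adjusted p = 0.000669) and rho = 0.90 (permutation p = 1e-05, adjusted p = 0.000667), with r at 0.88 without the 2 mice farthest from the median, 0.86, 0.92 and 0.84 within the blocks and 0.94 within the B6 libraries. *H19* gave r = 0.46 (permutation p = 3e-05, adjusted p = 0.00145) and rho = 0.49 (permutation p = 2e-05, adjusted p = 0.00109), with r at 0.44 without the 2 mice farthest from the median, 0.60, 0.25 and 0.17 within the blocks and 0.61 within the B6 libraries. *Snrpn* gave r = -0.59 (permutation p = 1e-05, adjusted p = 0.000669) and rho = -0.64 (permutation p = 1e-05, adjusted p = 0.000667), with r at -0.58 without the 2 mice farthest from the median, -0.82, -0.76 and -0.67 within the blocks and -0.37 within the B6 libraries. *Igf2* was also the gene related to the choroid plexus markers, with r = 0.66 (permutation p = 1e-05, adjusted p = 0.00324) and rho = 0.60 (permutation p = 1e-05, adjusted p = 0.00464), and r at 0.56 without the 2 mice farthest from the median, 0.25, 0.86 and 0.85 within the blocks and 0.45 within the B6 libraries. The summed choroid plexus markers, of which *Ttr* made 80.8%, had WT medians of 535, 489.7, 507 and 412 CPM in B6, CAST, WSB and PWK.

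**Figure D4:**
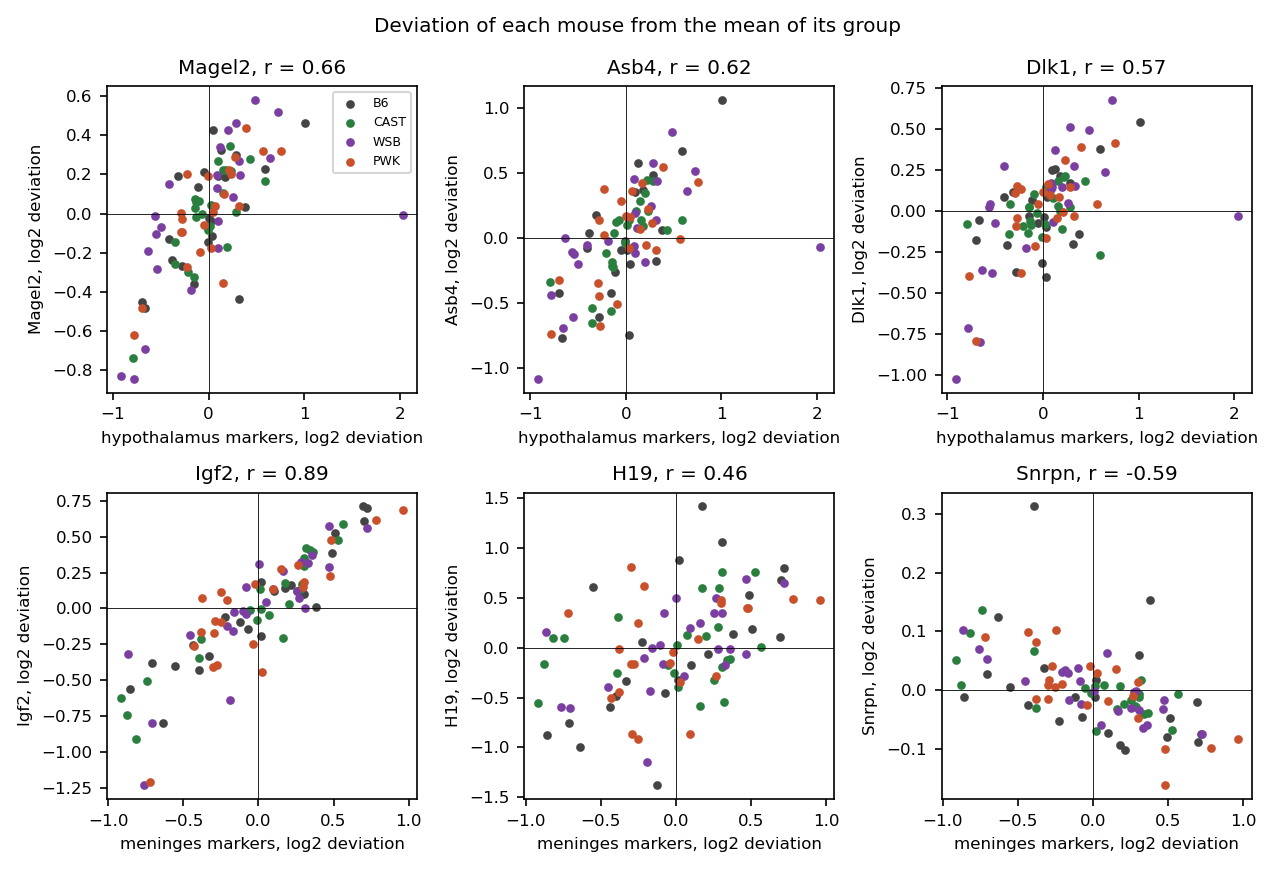
Deviation from the group mean in log2 CPM of summed hypothalamus markers against *Magel2*, *Asb4* and *Dlk1*, and of summed meninges markers against *Igf2*, *H19* and *Snrpn*, each point a mouse. *Igf2* rises with the meninges markers (r = 0.89, permutation p = 1e-05) and *Snrpn* falls (r = -0.59, permutation p = 1e-05).

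26 further imprinted genes were all tested. Of these, 14, 10 and 16 differed from B6 in CAST, WSB and PWK, beside 61.4%, 47.5% and 59.2% of all genes. Their median absolute log2 differences were 0.214, 0.178 and 0.196, beside 0.272, 0.195 and 0.265, without matching of levels. Between CAST and PWK, WSB and PWK, and CAST and WSB, 16, 15 and 15 differed, beside 54.8%, 54.5% and 54.2%. *Pon2* and *Pon3*, paraoxonases of the *Peg10* domain, were lower than B6 in CAST, at log2 -4.39 (adjusted p = 1.23e-73) and -1.39 (adjusted p = 2.81e-15). In response to the transgene *Jade1* was lower in PWK (-0.08, adjusted p = 0.0175), and 0 of 26 passed the threshold in B6, CAST and WSB (2, 0 and 0 at an unadjusted p under 0.05 with edgeR).

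Of 15 factors that set or keep imprints, 14 were tested, and *Dppa3*, at 0 in most mice, was not. 8, 9 and 9 of 14 differed from B6 in CAST, WSB and PWK, beside 61.4%, 47.5% and 59.2% of all genes, and 2, 1 and 3 of them were lower, the lowest *Uhrf1* in PWK at log2 -0.90 (adjusted p = 6.72e-07). *Dnmt3a*, the methyltransferase that sets imprints in the germline, was the most abundant and was higher than B6 by 0.25, 0.18 and 0.35 in CAST, WSB and PWK (adjusted p = 9.9e-13, 4.25e-08 and 4.43e-19). *Trim28*, a corepressor that protects imprints in the embryo, was higher by 0.13, 0.12 and 0.21 in CAST, WSB and PWK (adjusted p = 0.000141, 0.000673 and 2.89e-08). With edgeR 0 of 14 responded to the transgene in any strain, with 0, 2, 2 and 0 at an unadjusted p under 0.05 in B6, CAST, WSB and PWK.

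Markers of the main brain cells also differed between WT strains, where 61.4%, 47.5% and 59.2% of all genes differed from B6 in CAST, WSB and PWK. All 6 oligodendrocyte markers were lower than B6 in CAST, WSB and PWK, with summed medians of 6400.0 CPM in B6 and 4008, 4256 and 4150.4 CPM in the others, *Mbp* being the most abundant, and their part in the differences of imprinted genes was not tested. Of 6 neuron markers, 3, 3 and 3 differed from B6 in CAST, WSB and PWK, of 6 microglia markers 5, 6 and 5, of 6 astrocyte markers 5, 4 and 5 and of 5 blood markers 2, 2 and 3. Of 15 choroid plexus markers 10, 6 and 7 did, and of 6 pituitary markers tested 3, 0 and 0, the latter with edgeR and 1 and 1 at an unadjusted p under 0.05 in WSB and PWK.

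Summed WT medians in B6, CAST, WSB and PWK were 6247, 6202, 6421 and 6494 CPM for the neuron markers, 217, 197, 194 and 210.1 CPM for microglia and 4236, 4774, 4043 and 4546 CPM for astrocytes. They were 32.8, 30.8, 20.4 and 45.5 CPM for blood and 2.59, 1.39, 2.54 and 2.83 CPM for the pituitary. The most abundant genes of these lists were *Snap25*, *Csf1r*, *Slc1a2*, *Hbb-bs* and *Gh*. *Fshb* and *Ghrhr* of the pituitary list were at 0 in most mice and no gene of the other 4 lists was. With edgeR, 0 markers of neurons, oligodendrocytes, blood, meninges and choroid plexus responded to the transgene in any strain, with at most 2 of a list in any strain at an unadjusted p under 0.05. The part of these markers in the levels of imprinted genes was not tested, apart from the marker sums of choroid plexus, meninges and hypothalamus.

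Several limits apply to these values. A difference between strains holds the genome used for alignment as well as the strain, and a difference from B6 also a batch of libraries that is inferred from their identifiers. The counts cannot tell the alleles apart, so a change of imprinting and a change of transcription from the active allele look the same. *Mkrn3*, *H19* and *Slc22a18* rest on few counts, and *Phlda2* and *Nespas* fell below the count filter. Values of genes that share exon bases depend on settings of the counting that are not stated. The hemisphere was measured whole, at a single age, and differences in the share of tissue with high levels of a gene enter its value.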

How the data were processed

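RNA of the left brain hemisphere of 93 mice was sequenced as poly(A) libraries, 1 per mouse. The authors trimmed the reads with Trimmomatic, aligned them with STAR, to mm10 for B6 and to genomes with the variants of each strain for the others, and counted them with HTSeq. The deposited values are raw read counts per gene, without normalization. On average 15.6% of reads lay on no gene, 4.08% were ambiguous and 10.9% multimapped. 86 of the 47729 identifiers were listed for B6 mice only and had a count of 0.

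Groups were taken from the sample titles. Genes were kept if 10% of the mice or more had counts of 10 or higher. The tests were those of edgeR 4.0.16 under R 4.3.3 (TMM, quasi-likelihood, 16 group means, contrasts averaged over the sexes, Benjamini-Hochberg over 23702 genes, threshold 0.05). Log2 CPM used a prior count of 2. Correlations used 100000 permutations within groups, in both tails. Alternatives were DESeq2 1.42.0, its size factors, no count filter, a replicate block, library block, WT mice or a single strain only, a prior count of 0.5, leaving out B6.*APP/PS1* female 2 and B6 WT male 5, and each mouse of the groups of 4 and 5 in turn. Marker sums as covariates were chosen after the values were seen. Tables and figures were made with matplotlib 3.10.9, pandas 2.3.3, scipy 1.17.1 and numpy 2.4.6 in Python 3.11.15.

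The imprinted genes and the 11 other lists (further imprinted genes, imprint factors, and markers of choroid plexus, meninges and fibroblasts, hypothalamus, pituitary, neurons, microglia, astrocytes, oligodendrocytes and blood) were chosen with earlier results of these data known. Given in full are genes called in an *APP/PS1* comparison or in the F test of the response, the 12 with the largest range over CAST, WSB and PWK among those called there, and the 3 with the largest called difference of B6 from each strain. Other lists name at most 4 genes, those with the smallest p in the comparison described. Intervals cover the fitted spread between mice.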

Additional observations from a re-analysis of the deposited data

Results flagged for a closer look

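Each group of mice was looked at for a single mouse far from the others, for the 14 genes given in full. A mouse counted as far when its gap to the nearest other mouse, as a share of the range of the group, passed Dixon's 95% critical value for the size of the group. Of 224 groups of a gene, 21 had such a mouse, 20 mice in all, and by the level of that rule chance gives about 1 in 20 groups where values spread normally.

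*Mkrn3* was at 0.576 CPM in B6 WT female 4, under the 5 others of its group at 1.1 to 1.29 CPM. In CAST.*APP/PS1* female 5, *Airn* was at 5.45 CPM, under the range of 7.15 to 8.08 CPM of the 5 others. The CAST.*APP/PS1* male 1 had *Airn* at 9.63 CPM, above its 5 group mates at 5.54 to 6.84 CPM. *Airn* was at 11.7 CPM in PWK WT female 1, above the 4 others of its group at 9.36 to 9.87 CPM. In WSB WT male 1, *Airn* was at 6.36 CPM, above the range of 4.74 to 5.17 CPM of the 5 others. The B6 WT male 2 had *H19* at 0.846 CPM, above its 5 group mates at 0.189 to 0.346 CPM. *H19* was at 0.531 CPM in CAST WT male 2, above the 5 others of its group at 0.223 to 0.332 CPM. In PWK.*APP/PS1* male 5, *Zdbf2* was at 70.6 CPM, above the range of 59.7 to 62.8 CPM of the 5 others. The WSB WT female 3 had *Zdbf2* at 60.8 CPM, under its 5 group mates at 72.6 to 74.7 CPM. *Zim1* was at 12.9 CPM in CAST WT male 3, under the 5 others of its group at 15 to 16 CPM. In CAST.*APP/PS1* female 1, *Cdkn1c* was at 2.8 CPM, above the range of 1.89 to 2.22 CPM of the 5 others.

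The PWK WT male 6 had *Nnat* at 119 CPM, under its 5 group mates at 139 to 151 CPM. *Peg10* was at 103 CPM in B6.*APP/PS1* male 6, above the 5 others of its group at 65.6 to 76.9 CPM. In CAST WT male 3, *Peg10* was at 98.6 CPM, above the range of 64.3 to 70.5 CPM of the 5 others. The PWK.*APP/PS1* male 2 had *Impact* at 684 CPM, above its 5 group mates at 404 to 444 CPM. *Impact* was at 368 CPM in WSB.*APP/PS1* male 6, above the 5 others of its group at 344 to 351 CPM. In B6 WT male 6, *Slc22a18* was at 0.997 CPM, above the range of 0.362 to 0.528 CPM of the 5 others. The CAST.*APP/PS1* female 3 had *Slc22a18* at 0.531 CPM, above its 5 group mates at 0.121 to 0.247 CPM. *Ndn* was at 155 CPM in B6 WT male 5, above the 5 others of its group at 104 to 119 CPM. In CAST.*APP/PS1* male 2, *Ndn* was at 188 CPM, under the range of 208 to 219 CPM of the 5 others. The WSB.*APP/PS1* male 3 had *Ndn* at 197 CPM, above its 5 group mates at 178 to 185 CPM.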

How the results depend on the processing

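Of 451 values of 48 called differences of the genes given in full, 430 kept their direction and their side of the threshold, 18 kept the direction only and 3 reversed. Each of the 57 values of the 19 pairs kept both. The reversals came with the marker sums as covariates, chosen after the values were seen: *Igf2* between CAST and PWK (-0.047), *Igf2* between WSB and PWK (-0.039) and *H19* between WSB and PWK (-0.035). The cause was not tested. The count of responding genes in CAST was 1 in place of 0 with these covariates and 1 in a fit of CAST mice only (*H19* in both), and that in PWK was 1 with DESeq2's test (*Airn*). The cause was not tested.

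With the library block as a covariate, 12 in place of 17 imprinted genes differed between WSB and PWK, without *Blcap*, *H19*, *Meg3*, *Nap1l5* and *Ndn*, beside 12511 in place of 12910 of all 23702 genes. Between CAST and WSB 13 in place of 15 differed, without *Mirg* and *Ndn*, beside 12647 in place of 12850 of all genes. The F test called 22 in place of 24, without *Meg3* and *Ndn*, beside 17385 in place of 17558. Without B6.*APP/PS1* female 2 and B6 WT male 5, 23, 20 and 21 differed from B6 in CAST, WSB and PWK. Leaving out each PWK WT female in turn gave 14 to 18 calls between WSB and PWK, 21 to 23 between PWK and B6, 15 to 16 between CAST and PWK and 23 to 25 in the F test. *Ndn* between WSB and PWK lost its call without female 1, 2 or 5 (adjusted p = 0.0632, 0.0565 and 0.0573, over all alternatives 0.0300 to 0.179). *Nap1l5* lost it there without female 1, 2 or 3 and *Blcap* without female 2. Against B6, *Asb4* lost its call without female 1, *Dlk1* without female 2, *Commd1* without female 2 or 3 and *Blcap* without female 2, 4 or 5. Calls were also gained, of *Sgce* against B6 without female 2 and of *Zim1* without female 5. *Zrsr1* gained a call between WSB and PWK without female 2 or 4. Between CAST and PWK, *Cdkn1c* gained a call without female 1 and *Mirg* without female 5.

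The mean r of same-numbered mice was 0.00812 between *APP/PS1* and WT mice, 0.00261 between strains and 0.00626 between the sexes, against -0.00162, -0.000511 and -0.00126 for other mice, with 4 of 45 same-numbered pairs of the sexes above 0.1, and mice were not paired by number. With a replicate block, 21, 22 and 23 imprinted genes differed from B6 in CAST, WSB and PWK, 15 between CAST and PWK, 17 between WSB and PWK, 14 between CAST and WSB and 24 in the F test, and 0 in the *APP/PS1* and sex comparisons. *Peg10* between CAST and WSB lost its call with the replicate block (adjusted p = 0.0511, over all alternatives 0.0177 to 0.178). Over all genes, single-strain fits gave 32 responding genes in B6 in place of 53, and DESeq2 gave 137 in WSB in place of 89. In the F test of the response between strains, DESeq2 called 197 genes in place of 112. Depth limits *H19*, *Slc22a18* and *Mkrn3* most, with median counts of 24, 22 and 46.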

Other observations

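Markers of the pituitary, a gland that is not part of the hemisphere, were high in single mice. Their summed level was 516 CPM in B6.*APP/PS1* male 6, 451 CPM in WSB.*APP/PS1* male 2 and 86.7 CPM in CAST WT female 6, followed by B6.*APP/PS1* female 1 (57.4 CPM) and female 4 (17.8 CPM), WSB.*APP/PS1* female 5 (38.5 CPM) and PWK WT female 1 (11.5 CPM), against WT ranges of 2.18 to 3.24 CPM (median 2.59) in B6 and 1.85 to 4.46 CPM (median 2.54) in WSB. *Gh* and *Prl* were the pituitary markers higher in *APP/PS1* mice of B6, at log2 8.49 (adjusted p = 0.00014) and 8.30 (adjusted p = 0.000118), and of WSB, at 7.76 (adjusted p = 0.00048) and 6.33 (adjusted p = 0.00214), and the part of these few mice in the calls was not tested. The summed hypothalamus markers were also high in the first pair. They were at 58.6 CPM in B6.*APP/PS1* male 6 and 235 CPM in WSB.*APP/PS1* male 2, against group medians of 26.2 and 41.7 CPM. Of these markers, *Pomc* and *Crh* were higher in *APP/PS1* mice of WSB, at 2.63 (adjusted p = 0.00261) and 0.62 (adjusted p = 0.00481). The part of WSB.*APP/PS1* male 2 in these calls was not tested. How far pituitary RNA enters the hypothalamus sum, its correlations and the fits with marker sums was not tested either. In B6.*APP/PS1* male 6 and WSB.*APP/PS1* male 2, *Peg10* was at 103 and 79.8 CPM and *Dlk1* at 50.9 and 39.4 CPM.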
